A study of Mus musculus with 2 samples.

Results

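The nuclear genes of respiratory complexes II, III and IV were described in mouse adrenal gland sequenced as long RNA reads. Members were taken by gene name: annotated genes whose symbol starts with Sdha, Sdhb, Sdhc, Sdhd or Sdhaf, with Uqcr, Uqcc or Cyc1, or with Cox and a digit, leaving out names with -ps. The rule found 46 genes with a read among 18179 annotated genes with a read, of which 8 belong to complex II, 12 to complex III and 26 to complex IV. The complex IV names include Cox20b, a processed pseudogene with 1 read in replicate 1 and none in replicate 2. Annotated Cox7b2, Cox8c and the pseudogene Cox6c2 fit the rule and had 0 reads in both libraries. The study holds 2 libraries of 1 group: total RNA of adrenal gland from female B6CASTF1/J mice, the first-generation cross of C57BL/6J and CAST, aged 10 days, with no treatment named. Animal 03 appears in the library text of each replicate, but the texts on the tissue give animal 03 to replicate 1 and animal 04 to replicate 2, so the spread between libraries may or may not include a difference between animals. With 1 group there was no contrast between conditions, and every test below compares the reads of these 2 libraries.

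Levels are given in CPM, a gene's reads scaled to a common library total. Each read was counted once whatever its length, so CPM was not divided by length. Whether several reads came from the same molecule, and whether molecules of different lengths were recovered equally, was not tested. Replicate 1 held 593058 reads and replicate 2 held 772037 reads after the ERCC spike-in reads were set aside, so 0 reads allow a level of up to 5.06 CPM in replicate 1, against 3.89 CPM in replicate 2 (3 counts over the library's total). The 7 steroidogenic markers, which define adrenal cortex, summed to 17305 CPM in replicate 1 and 21407 CPM in replicate 2, and the 5 chromaffin markers to 4885 and 5414 CPM in the same order, so the labelled tissue was present in both. Markers of other tissues were present too and differed in amount. The 10 fast skeletal muscle markers summed to 10780 CPM in replicate 1 and 3877 CPM in replicate 2, the 10 slow muscle and heart markers to 651 and 41.4 CPM, and the 6 liver markers to 7950 and 1284 CPM. The 6 kidney markers were at 0 in replicate 1 and summed to 645 CPM in replicate 2. The 10 brown fat markers summed to 6642 CPM in replicate 1 and 8318 CPM in replicate 2, and the 6 general fat markers to 5704 and 8496 CPM. The 5 red cell markers gave 5574 and 4186 CPM, the 6 smooth muscle and pericyte markers 131 and 220 reads, and the 3 lung markers 0 and 11.7 CPM. None of the 6 testis markers had a read in either library. In bulk tissue, fewer cells of a type and less RNA per cell cannot be told apart.

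The respiratory chain of the inner mitochondrial membrane passes electrons from fuels to oxygen. Complex II (succinate dehydrogenase) takes electrons from succinate, complex III (cytochrome bc1) passes them from ubiquinol to cytochrome c, and complex IV (cytochrome c oxidase) passes them to oxygen. Every subunit of complex II is encoded in the nucleus, while complexes III and IV each combine nuclear subunits with subunits encoded by mitochondrial DNA. Several complex IV subunits exist as tissue forms from paired genes: Cox6a2, Cox7a1 and Cox8b are the forms of heart and skeletal muscle, with Cox7a1 and Cox8b also known from brown fat in the mouse, and Cox6a1, Cox7a2 and Cox8a are the widespread forms. In the adrenal cortex, mitochondria also house steroid-making enzymes.

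The paralogs differ over much of their length, and how reads were divided between like copies was not examined. Over the annotated coding sequences, aligned end to end, Cox8b and Cox8a shared 114 identical bases, 54.3% of the longer sequence. The shares were 56.5% for Cox6a2 with Cox6a1, 61.8% for Cox7a1 with Cox7a2, 66.1% for Cox4i2 with Cox4i1 and 61.7% for Cox6b2 with Cox6b1. The subunit 8 pair is shown because both of its forms were abundant in these glands. The sequences are from the annotated transcripts of Cox8b (minus strand, coding part within chr7:140898991-140900342, mm10, in 2 exons, 210 bases) and Cox8a (minus strand, coding part within chr19:7215392-7217512, mm10, 2 exons, 207 bases), without the stop codon. Capitals mark bases with no identical partner in the alignment.
Cox8b: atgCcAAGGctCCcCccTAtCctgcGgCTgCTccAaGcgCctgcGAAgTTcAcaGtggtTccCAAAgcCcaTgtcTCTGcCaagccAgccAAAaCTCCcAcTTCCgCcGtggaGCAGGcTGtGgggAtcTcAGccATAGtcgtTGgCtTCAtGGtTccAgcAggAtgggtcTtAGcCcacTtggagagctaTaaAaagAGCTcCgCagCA
Cox8a: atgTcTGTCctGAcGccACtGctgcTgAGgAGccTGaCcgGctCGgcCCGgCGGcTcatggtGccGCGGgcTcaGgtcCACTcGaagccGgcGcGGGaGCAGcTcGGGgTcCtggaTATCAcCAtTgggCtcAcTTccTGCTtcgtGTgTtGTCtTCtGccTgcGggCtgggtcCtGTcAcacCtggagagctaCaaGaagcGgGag

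The promoters of the 2 paralog pairs with about equal reads are shown next, from the RefSeq table of 300-base windows (250 bases before to 50 after the annotated start, build GRCm38.p6). Cox8b lies at chr7:140900397-140900696 (minus strand), Cox8a at chr19:7217567-7217866 (minus strand), Cox7a1 at chr7:30183921-30184220 (plus strand) and Cox7a2 at chr9:79759804-79760103 (minus strand). Capitals mark matches, on either strand, to any of 6 motifs: those of the ETS factors, which include GABP, of NRF1, of YY1 and of the estrogen-related receptors, the TATA box and an E-box.
Cox8b: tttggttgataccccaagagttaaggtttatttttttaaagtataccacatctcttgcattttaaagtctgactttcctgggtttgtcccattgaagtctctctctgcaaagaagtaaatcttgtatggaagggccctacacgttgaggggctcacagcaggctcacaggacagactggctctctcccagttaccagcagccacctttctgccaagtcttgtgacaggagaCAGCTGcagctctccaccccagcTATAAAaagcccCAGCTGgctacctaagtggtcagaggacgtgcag
Cox8a: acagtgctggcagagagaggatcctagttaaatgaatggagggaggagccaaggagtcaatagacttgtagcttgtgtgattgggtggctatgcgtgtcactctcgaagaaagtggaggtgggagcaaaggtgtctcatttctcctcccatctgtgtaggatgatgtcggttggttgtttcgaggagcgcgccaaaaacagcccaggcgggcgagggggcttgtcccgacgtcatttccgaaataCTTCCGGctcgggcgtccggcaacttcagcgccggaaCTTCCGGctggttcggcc
Cox7a1: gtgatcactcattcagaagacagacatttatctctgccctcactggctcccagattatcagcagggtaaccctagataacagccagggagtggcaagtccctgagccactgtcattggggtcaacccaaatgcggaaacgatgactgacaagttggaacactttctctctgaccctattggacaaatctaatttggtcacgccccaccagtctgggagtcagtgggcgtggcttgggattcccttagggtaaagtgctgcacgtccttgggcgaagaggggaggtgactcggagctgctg
Cox7a2: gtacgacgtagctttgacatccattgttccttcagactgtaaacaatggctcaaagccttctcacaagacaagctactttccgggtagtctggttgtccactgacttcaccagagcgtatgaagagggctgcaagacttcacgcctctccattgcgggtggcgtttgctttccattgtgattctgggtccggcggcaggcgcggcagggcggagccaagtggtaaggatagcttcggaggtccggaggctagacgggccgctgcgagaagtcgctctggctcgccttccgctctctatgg
The muscle-form Cox8b window holds 1 match to the TATA box, 2 E-boxes and 2 CG dinucleotides. The widespread Cox8a window holds 2 ETS motifs, both read on the opposite strand, and 19 CG. The TATA match of Cox8b begins 4 bases after the annotated start, not before it. Of the 2 E-boxes of Cox8b, 1 begins before the annotated start and 1 after it, as do the 2 ETS motifs of Cox8a. Whether any of these matches acts at the annotated starts was not tested. The Cox7a1 and Cox7a2 windows held none of the 6 motifs, with 7 CG in Cox7a1 and 20 CG in Cox7a2. Among the 34 of 46 members found in the table, 15 held the ETS motif, spelled CCGGAAG (44.1%), against 9.08% of all 27025 promoters. The NRF1 motif, spelled GCGCATGC, stood in 4 members (11.8%), against 2.78% of all promoters, and the YY1 motif, spelled AAGATGG, also in 4 members, against 6.46%. The TATA box, searched as TATAAA, stood in 3 members (8.82%, against 14.1%: Cox10, Cox8b and Sdhaf3). The E-box, searched as CAGCTG, stood in 2 (5.88%, against 16.2%: Cox8b and Uqcc3). The motif of the estrogen-related receptors, searched as AAGGTCA, stood in 2 (5.88%, against 4.66%: Sdhd and Uqcc3). The median number of CG dinucleotides was 19.5 in the members' windows and 7 in all windows. The ETS and NRF1 spellings contain a CG and the other spellings do not, and the shares were not compared at equal CG content. No motif overlapped another in the windows shown, and a match is a run of letters, not a measured binding site.

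Together the members took 3.7% of the reads in replicate 1 and 5.08% in replicate 2 (21919 and 39212 reads). Of the 100 genes with most reads, 16 in replicate 1 and 21 in replicate 2 were members. Complex II summed to 4182 ± 315 CPM (SD, n = 2), complex III to 13543 ± 2673 CPM and complex IV to 26149 ± 6792 CPM. All 3 sums were lower in replicate 1: 3959 CPM in replicate 1 against 4405 CPM in replicate 2 for complex II, 11653 against 15433 CPM for complex III and 21347 against 30952 CPM for complex IV. Summed over genes, subunits were above the factors that assemble them, although single genes overlapped: the subunits Cox6a2 (110 CPM on average), Cox6b2 (14.9 CPM) and Cox4i2 (4.28 CPM) lay below the assembly factors Cox17 (477 CPM) and Cox14 (379 CPM). The 4 complex II subunits gave 3893 ± 263 CPM and the 4 assembly factors 290 ± 52 CPM, the 9 complex III subunits 13061 ± 2639 and the 3 assembly factors 483 ± 33.8 CPM, and the 15 complex IV subunits 24654 ± 6461 and the 10 assembly factors 1494 ± 332 CPM.

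**Figure D1:**
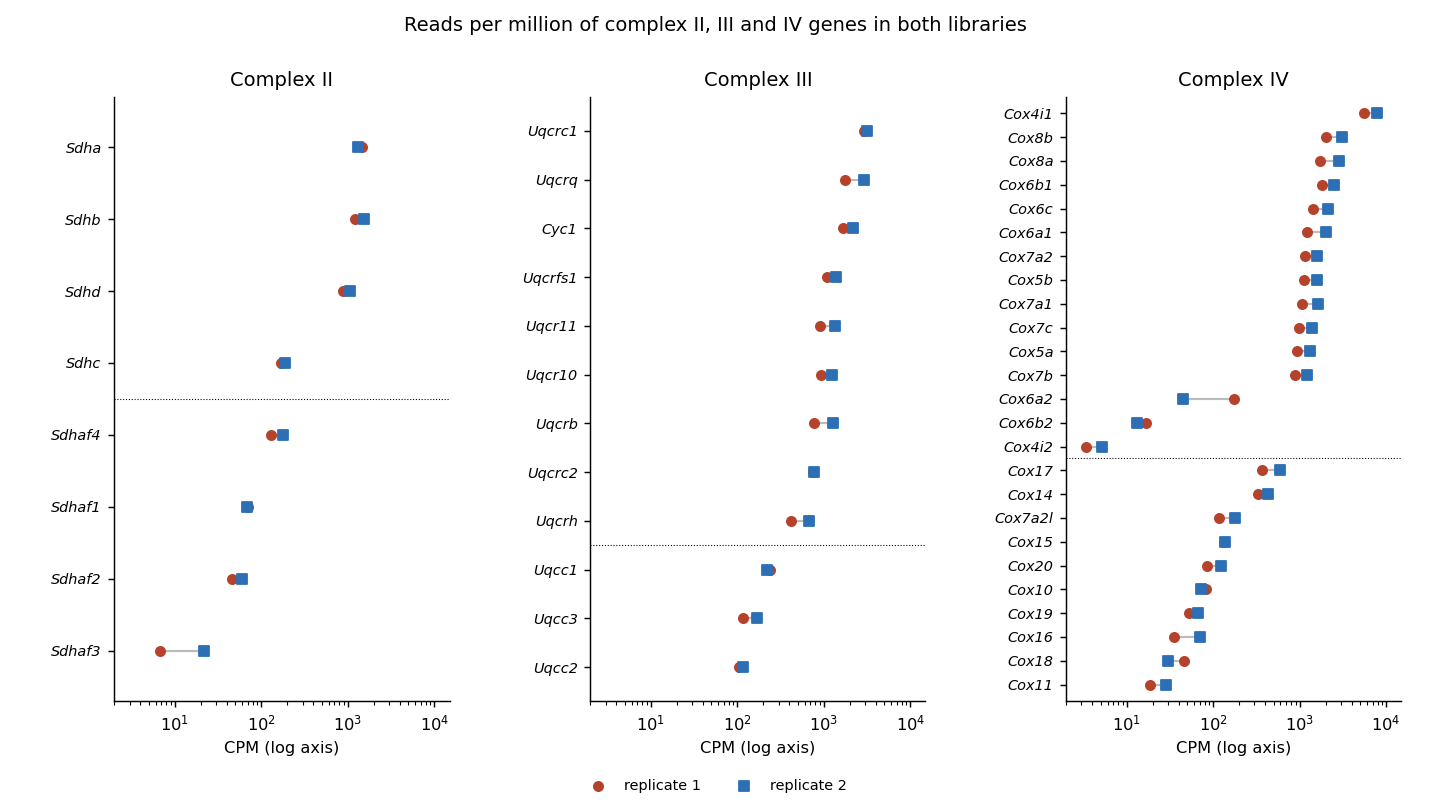
CPM of every member with a coding transcript, one row per gene on a log axis, circles for replicate 1 and squares for replicate 2, subunits above the dotted line and assembly factors below it. Cox4i1 sits highest at 5554 and 7901 CPM, and Cox6a2 is the member whose libraries lie farthest apart with replicate 1 higher (175 and 45.3 CPM).

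In complex II the catalytic subunits led. Sdha, the flavoprotein that oxidises succinate, had 1448 CPM in replicate 1, against 1302 CPM in replicate 2 (859 and 1005 reads). Sdhb, the iron-sulfur subunit, had 1201 CPM in replicate 1, against 1535 CPM in replicate 2. The membrane anchors differed from each other: Sdhd had 887 and 1052 CPM, while Sdhc had 170 and 190 CPM in replicates 1 and 2. Sdhc was thus the lowest subunit of the complex in both libraries, and the highest subunit had 8.5 times its reads in replicate 1 and 8.06 times in replicate 2. The annotated Sdhc transcript is long (3171 bases, against 1231 for Sdhd). Of the assembly factors, Sdhaf4 had 130 and 176 CPM, Sdhaf1 70.8 and 68.6 CPM, and Sdhaf2, which helps insert the flavin into Sdha, 45.5 and 59.6 CPM. Sdhaf3 was close to the detection limit with 4 reads in replicate 1 and 17 in replicate 2 (adjusted p = 0.201, exact binomial test).

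In complex III, Uqcrc1, core protein 1, was the most abundant subunit at 3015 ± 186 CPM (n = 2), with 2883 CPM in replicate 1 and 3146 CPM in replicate 2. Its partner Uqcrc2, core protein 2, had 755 and 776 CPM in the same order, although their proteins sit in the complex in equal number (annotated transcripts of 1653 bases for Uqcrc1 and 1896 bases for Uqcrc2). Cyc1, cytochrome c1, had 1674 CPM in replicate 1, against 2179 CPM in replicate 2, and Uqcrfs1, the Rieske iron-sulfur protein, 1101 and 1389 CPM. The small subunits Uqcrq (1770 and 2895 CPM), Uqcr11 (897 and 1354 CPM), Uqcr10 (919 and 1251 CPM), Uqcrb (772 and 1267 CPM) and Uqcrh, the hinge protein (422 and 671 CPM), were all higher in replicate 2. The highest and lowest subunits of complex III differed 6.84-fold in replicate 1 and 4.69-fold in replicate 2. The assembly factors Uqcc1, Uqcc3 and Uqcc2, which act on cytochrome b, had 239, 115 and 105 CPM in replicate 1 and 218, 171 and 118 CPM in replicate 2.

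In complex IV, Cox4i1, the widespread form of subunit 4, ranked 3 among all annotated genes by mean CPM (ENSMUSG00000031818.12, chr8:120668222-120674207, plus strand). It had 5554 CPM in replicate 1, against 7901 CPM in replicate 2 (3294 and 6100 reads). Of the nuclear subunits with no restricted form among the members, Cox6c stood at 1435 and 2146 CPM, Cox5b at 1126 and 1570 CPM, Cox7c at 970 and 1404 CPM, Cox5a at 931 and 1302 CPM and Cox7b at 887 and 1216 CPM. Cox6b1 had 1835 and 2521 CPM. Every one of these was higher in replicate 2. Assembly factors ranged widely. Cox17, which carries copper to the complex, led with 363 CPM in replicate 1 and 591 CPM in replicate 2, followed by Cox14 at 327 and 430 CPM. Cox7a2l, a relative of subunit 7a that acts in joining complexes III and IV, had 116 and 181 CPM. The heme A enzymes Cox15 (135 and 137 CPM) and Cox10 (82.6 and 72.5 CPM) were at like levels in both libraries. Cox20 had 84.3 and 122 CPM, Cox19 52.3 and 66.1 CPM, Cox16 35.4 and 71.2 CPM, Cox18 45.5 and 29.8 CPM, and Cox11, another copper carrier, 18.5 and 28.5 CPM.

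The tissue forms of complex IV fell into 3 patterns. Cox8b and Cox7a1 were about as abundant as their widespread partners. Cox8b had 1191 reads in replicate 1 and 2361 in replicate 2 (2008 and 3058 CPM), against 1014 and 2181 reads of Cox8a (1710 and 2825 CPM). Cox8b was thus 54.0% of the subunit 8 reads in replicate 1 (exact Clopper-Pearson 95% interval 51.9 to 56.1%) and 52.0% in replicate 2 (50.5 to 53.4%). Cox7a1 had 630 and 1242 reads (1062 and 1609 CPM), against 688 and 1218 reads of Cox7a2 (1160 and 1578 CPM), a share of 47.8% in replicate 1 (45.1 to 50.5%) and 50.5% in replicate 2 (48.5 to 52.5%). Cox7a1 carried many single-exon reads, and with spliced models alone its share was 44.9% in replicate 1 and 46.8% in replicate 2. Intervals and limits here and elsewhere cover counting error only.

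Cox6a2, the muscle form of subunit 6a, did not share that pattern. It had 104 reads in replicate 1 and 35 in replicate 2 (175 and 45.3 CPM), against 719 and 1567 reads of Cox6a1 (1212 and 2030 CPM). Its share was 12.6% in replicate 1 (10.4 to 15.1%) and 2.18% in replicate 2 (1.53 to 3.03%), and these intervals do not overlap. Cox6a2 was 3.87-fold higher in replicate 1 than in replicate 2 (95% counting interval 2.61 to 5.85; adjusted p = 7.99e-12, exact binomial test), the only member of 44 tested called at 2-fold or more in that direction. Over all 10567 genes tested, 2.9% were called higher in replicate 1. As an alternative, edgeR's exact test takes in a spread between libraries (coefficient of variation 0.251). That spread was estimated from these same 2 libraries taken as 1 group, so it is not independent of the difference tested. With edgeR's exact test the adjusted p of Cox6a2 was 0.0893. That test called no member in either direction, against 0.89% of genes higher in replicate 1 and 0.36% higher in replicate 2. Single-exon reads were 28.8% of Cox6a2 in replicate 1 and 11.4% in replicate 2, and over spliced models alone the log2 ratio was 1.69 (adjusted p = 4.86e-07, exact binomial test).

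The remaining restricted forms were scarce. Cox6b2, known from testis, had 10 reads in each library, 0.911% of subunit 6b reads in replicate 1 (0.438 to 1.67%) and 0.511% in replicate 2 (0.245 to 0.938%). Cox4i2, known from lung, had 2 reads in replicate 1 and 4 in replicate 2, 0.0607% of subunit 4 reads (0.00735 to 0.219%) and 0.0655% (0.0179 to 0.168%).

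**Figure D2:**
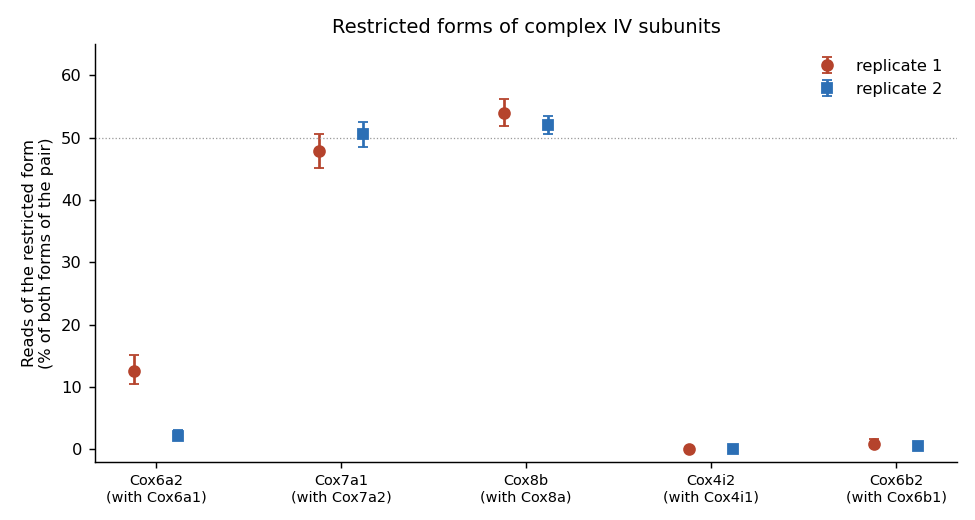
Reads of the restricted form as a percentage of both forms of each complex IV pair, circles for replicate 1 and squares for replicate 2, with exact 95% intervals. Cox8b and Cox7a1 lie near 50% in both libraries, whereas Cox6a2 is at 12.6% in replicate 1 and 2.18% in replicate 2.

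The marker values beside the restricted forms were as follows. Fast muscle markers summed 2.78-fold higher in replicate 1, with 5 of 10 called higher there and Myh4 called higher in replicate 2. Acta1, skeletal actin, had 2911 reads in replicate 1 and 975 in replicate 2. Slow muscle and heart markers summed 15.7-fold higher in replicate 1, with 7 of 8 tested called. The other tested marker, Actc1, ran the other way with 5 reads in replicate 1 and 15 in replicate 2, and was not called. Myh7, Tnnc1, Myl2 and Tnnt2 were at 0 in replicate 2, although Tnnt2 had only 1 read in replicate 1. The atrial myosin Myh6 was at 0 in both libraries. Brown fat markers ran the other way in sum (ratio 0.798). For the 7 tested, the median log2 ratio of replicate 1 over replicate 2 was -0.02. Ucp1, the uncoupling protein of brown fat, had 1300 and 2330 reads in replicates 1 and 2 (2192 and 3018 CPM). Cidea had 1794 and 3275 reads (3025 and 4242 CPM). Without being called, Ppargc1a (log2 ratio 0.74) and Cpt1b (0.07) were higher in replicate 1, and Plin5 (-0.02) and Elovl3 (-0.07) slightly lower. Of the 7 brown fat markers tested, Fabp3, which muscle also uses, was called higher in replicate 1, and Lhx8 was at 0 in replicate 1 with 1 read in replicate 2. The ratio of replicate 1 to replicate 2 was 0.657 for Cox8b (0.612 to 0.704) and 0.660 for Cox7a1 (0.599 to 0.727), close to 0.605 for Cox8a and 0.735 for Cox7a2. The part of muscle or brown fat cells in these values was not tested.

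Beyond the paralogs, the libraries leaned one way. Of the 44 members tested, 37 (84.1%) were higher in replicate 2, against 47.5% of all genes tested, and the median log2 ratio of replicate 1 over replicate 2 was -0.45 for members and 0.04 for all tested genes. No member was called higher in replicate 2 at 2-fold or more, against 0.984% of all genes. Without the fold minimum, 24 members passed the adjusted p as higher in replicate 2 and 1 as higher in replicate 1, against 3.84% and 3.56% of all genes in the same directions. Those higher in replicate 2 were 2 of 4 complex II subunits, 7 of 9 complex III subunits and 12 of 14 tested complex IV subunits. Among assembly factors they were Cox17, Cox14 and Cox7a2l of complex IV, 3 of 10, and none of complexes II and III. Members are deeply read, with a median of 1192.5 reads over both libraries against 43 for all genes tested, and a test on more reads passes at smaller ratios. Among genes with 500 or more reads, 23 of 26 members (88.5%) and 44.1% of 381 other genes passed as higher in replicate 2, and the median log2 ratios were -0.48 for members and -0.22 for the others. The largest shift toward replicate 2 among members with 500 or more reads was that of Cox6a1, with 1212 CPM in replicate 1, against 2030 CPM in replicate 2 (log2 ratio -0.74, adjusted p = 1.63e-29, exact binomial test). Cox8a (-0.72), Uqcrq and Uqcrb (-0.71 each) came next. Sdha (0.15) and Uqcrc2 (-0.04) were at like levels in both libraries.

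Transcript length moved with this lean. Among members whose main annotated transcript was shorter than 500 bases, all 6 were higher in replicate 2, their median log2 ratio being -0.6, against -0.23 for 208 other genes of that length. From 500 to 700 bases the median was -0.5 for 14 members and -0.36 for 252 other genes, and from 700 to 1000 bases -0.48 for 3 members and -0.33 for 565 others. From 1000 to 2000 bases it was -0.35 for 11 members and -0.14 for 2490 others, and at 2000 bases or more -0.09 for 10 members and 0.13 for 6524 others. Across the 44 members, Spearman's rho between length and ratio was 0.44 and Pearson's r with log2 length was 0.13. Across 10039 other genes rho was 0.29 and r was 0.20. Genes are not independent replicates, and these values describe the 2 libraries only. The part of transcript length in the lean was not tested.

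**Figure D3:**
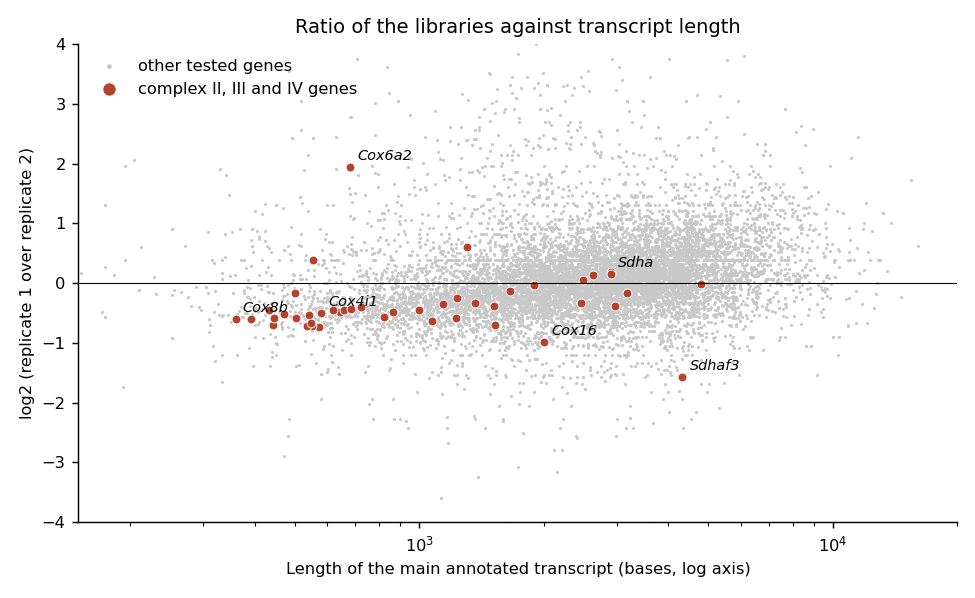
The log2 ratio of replicate 1 over replicate 2 against the length of the main annotated transcript (log axis), red for members and grey for other tested genes, of which 68 lie beyond the range of 4 shown. Members shorter than 1000 bases all sit below 0, apart from Cox6a2 at 1.94 and Cox6b2 at 0.38.

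The mitochondrially encoded partners went the opposite way. These genes, which encode the cores of complexes III and IV, summed to 4244 CPM in replicate 1 and 1240 CPM in replicate 2, and 4 of 4 were called higher in replicate 1. Cytochrome b (mt-Cytb), the mitochondrially encoded subunit of complex III, had 853 reads in replicate 1 and 266 in replicate 2 (log2 ratio 2.06, adjusted p = 5.92e-107, exact binomial test). Of the complex IV core, mt-Co1 had 1332 and 620 reads, mt-Co3 193 and 45 reads, and mt-Co2 139 and 26 reads. Nuclear complex IV subunits had a median log2 ratio of -0.5 and nuclear complex III subunits of -0.44, the opposite direction in the median. Single nuclear subunits departed from this. Cox6a2 (1.94) and Cox6b2 (0.38) were higher in replicate 1, and Uqcrc2 (-0.04) was at like levels in both libraries. The RNAs of the mitochondrially encoded genes are transcribed inside the mitochondrion, and how well such transcripts were captured in each library was not tested.

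Nuclear genes outside the rule that work with the complexes were also read. Of 28 such genes found by symbol from a list of 30, 26 were tested, none was called in either direction, and the median log2 ratio was -0.35. Over all genes tested, 2.9% were called higher in replicate 1 and 0.984% higher in replicate 2. At these shares, sets as small as those in this paragraph can hold no called gene. Ndufa4, now counted among complex IV subunits, had 2561 CPM in replicate 1, against 4062 CPM in replicate 2. Cycs, the somatic cytochrome c, had 1130 and 1521 CPM, and the testis form Cyct had no read. Surf1, a complex IV assembly factor, had 45.5 and 68.6 CPM, Lrpprc, which stabilises mitochondrial mRNAs, had 152 and 98.4 CPM, and Bcs1l, which inserts the Rieske protein, had 43.8 and 67.4 CPM. Of 8 regulators of transcription on a fixed list, none was called and the median log2 ratio was 0.1. Esrra, an estrogen-related receptor, led with 241 and 259 CPM. Nrf1 had 37.1 and 24.6 CPM, Gabpa 45.5 and 38.9 CPM, and the coactivator Ppargc1a 13 and 10 reads. Taken by name alone, 46 tested genes starting with Nduf (complex I subunits and assembly factors, and Ndufa4) had a median log2 ratio of -0.44 and 17 tested genes starting with Atp5 (ATP synthase) of -0.4, with none called.

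The deposited models also record the splice structure of the reads. On models of the annotated class lay 91.3% of member reads in replicate 1 and 93.3% in replicate 2, against 71.0 and 75.6% for all annotated genes. Single-exon models held 4.95 and 4.05% of member reads, against 14.5 and 12% over all annotated genes. In the 44 members with a spliced coding transcript, 81.2% of reads in replicate 1 and 83.0% in replicate 2 carried every intron of a complete coding transcript. A further 12.3 and 11.5% carried only the 3′ part of such a chain. The 28 subunit transcripts had a median of 669.5 bases and 4 exons, and the 17 assembly factor transcripts a median of 1307 bases.

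**Figure D4:**
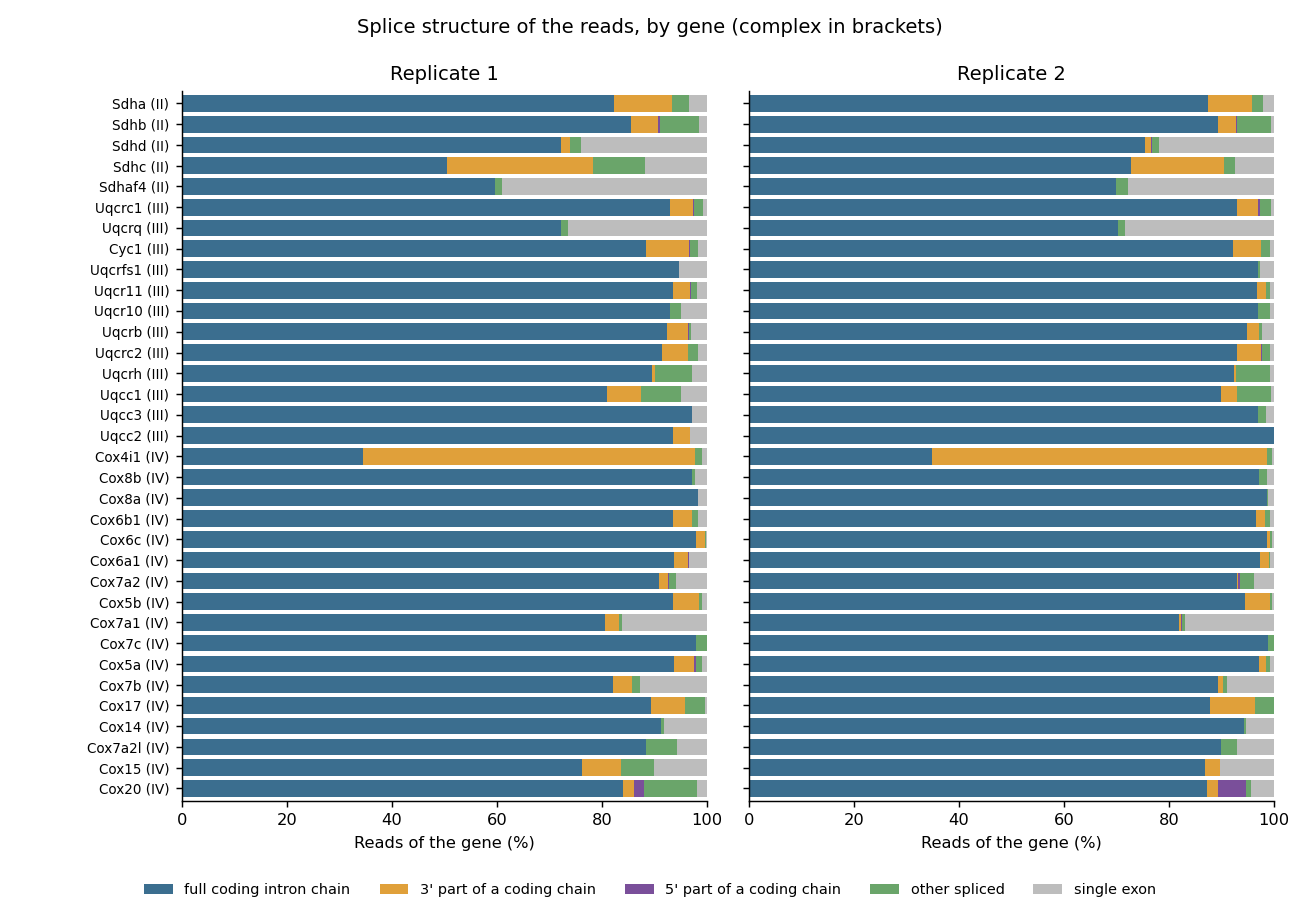
Share of each member's reads by splice structure, for the 34 members with at least 50 reads in each library, replicate 1 left and replicate 2 right. Most genes are over 80% full coding chain (blue), whereas Cox4i1 has 63.4 and 63.7% in 3′ parts (orange).

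Cox4i1 accounted for most of the 3′ parts. Its coding transcript (ENSMUST00000034276.12) has 5 exons with the start codon in exon 2. It held 1111 reads in replicate 1 and 2086 in replicate 2, 33.7 and 34.2% of the gene. Most reads lay instead on a 3-exon model annotated as retained intron (ENSMUST00000181172.1, chr8:120672590-120674113), with 2010 and 3784 reads, 61.0% in replicate 1 (59.3 to 62.7%) and 62.0% in replicate 2 (60.8 to 63.3%). Both introns of that model are also introns of the coding transcript, and its first exon begins 135 bases before the third exon of the coding transcript. The first 73 of 507 coding bases lie before that exon. The deposited model carries the annotated start, so where each read begins is not recorded there. Without Cox4i1, the full coding chain made up 89.5% of member reads in replicate 1 and 91.9% in replicate 2, and 3′ parts 3.22 and 1.89%. The share of the retained-intron model differed by 1.01 percentage points between the libraries (adjusted p = 0.779, Fisher's exact test).

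**Figure D5:**
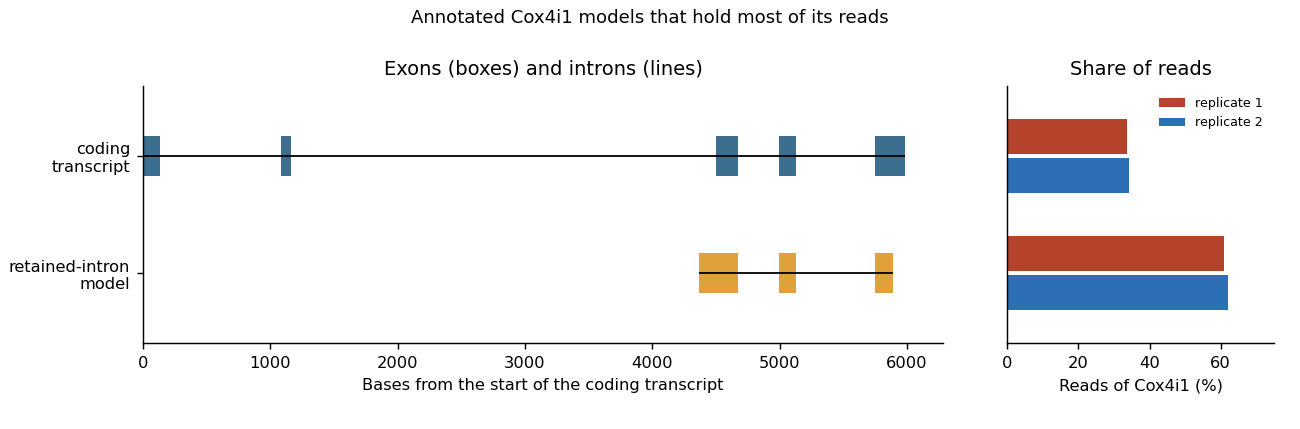
Exons of the annotated Cox4i1 models by distance from the start of the coding transcript, with the share of Cox4i1 reads on each model at the right, red for replicate 1 and blue for replicate 2. The retained-intron model holds 61.0 and 62.0% of the reads and the coding transcript 33.7 and 34.2%.

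Single-exon reads were concentrated in a few genes. They made up 26.6% of Uqcrq reads in replicate 1 and 28.4% in replicate 2, 24 and 21.9% of Sdhd, 16.2 and 17% of Cox7a1, and 39.0 and 27.9% of Sdhaf4. In Cox8a and Cox8b, by contrast, 98.3 and 98.7% and 97.1 and 97.2% of reads carried the full coding chain. The main spliced transcript held over 90% of the reads in both libraries in 17 of 34 members tested, and under 75% in both in 4. The share of that transcript was called different in 1 of the 34 members, against 1.87% of all 2091 genes tested. This was Sdhc, whose 6-exon coding transcript held 51 of 101 reads in replicate 1 (50.5%, 40.4 to 60.6%) and 107 of 147 reads in replicate 2 (72.8%, 64.8 to 79.8%), a difference of -22.3 percentage points (adjusted p = 0.0231, Fisher's exact test). Among its other reads, 28 in replicate 1 and 26 in replicate 2 were 3′ parts of the coding chain and 12 and 11 were single-exon. Over spliced reads alone the shares were 57.3 and 78.7%, and the adjusted p was 0.0556, and with a minimum of 20 reads it was 0.0509. Without a minimum difference, 6 members passed, against 3.78% of all genes: Cox6a1, Cox6b1, Cox7b, Cyc1, Sdhc and Uqcr10, each with a lower main share in replicate 1. The median main share over all genes tested was also lower in replicate 1, at 75.8% against 80.0% in replicate 2.

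Of 431 unannotated splice chains of members, 142 had reads in both libraries and 37 had at least 5 reads in each, of which 30 were 3′ parts of coding chains. The most abundant of the other 7 belonged to Sdhb, with 42 reads in replicate 1 and 65 in replicate 2, 5.9% (4.28 to 7.89%) and 5.49% (4.26 to 6.94%) of its reads. It joins exon 1 to a position 6 bases inside exon 2, leaving out chr4:140966495-140966500 (mm10, plus strand). The annotated junction is shown because these bases end in AG, the last letters of an intron at the usual acceptor, and because exon 1 holds 72 coding bases, so that their loss would remove 2 whole codons. The sequence runs 30 bases to each side of the junction, and capitals mark the bases left out.
Sdhb: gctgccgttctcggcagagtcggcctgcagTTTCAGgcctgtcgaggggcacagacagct
The next chain belonged to Uqcrh, with 9 reads in replicate 1 and 17 in replicate 2, 3.6% (1.66 to 6.72%) and 3.28% (1.92 to 5.2%) of its reads. It lacks exon 2 of the main transcript, a coding exon of 21 bases at chr4:116070737-116070757 (mm10, minus strand), and extends exon 1 by 13 bases, a net loss of 8 bases. The exon is shown in capitals between 20 bases of each neighbouring exon.
Uqcrh: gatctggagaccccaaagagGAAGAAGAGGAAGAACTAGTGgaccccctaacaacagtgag
For both chains the intervals of the libraries overlapped. The genome sequence was not used here, so the intron sides of these junctions were not examined.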

How the data were processed

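Long-read RNA libraries of adrenal gland (replicates 1 and 2 of 1 group, per the labels) were analysed from the counts deposited by the authors, which are unnormalized whole reads for each transcript model. The deposit's notes name mm10 and GENCODE M21, and the deposited model files list TALON as their source. For the aligner, strand use in counting and platform, the sources used here give nothing. The authors' model lengths, exon numbers and coordinates were used as deposited, and a model's ends need not be those of each read.

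Models were summed per annotated gene. ERCC reads (2.24 and 2.11% of reads) were left out, and no SIRV name was found. CPM was computed from the rest. Genes with 10 or more reads were tested by an exact binomial test (two-sided) of the split of reads between libraries given their totals, Benjamini-Hochberg over 10567 genes, called at adjusted p below 0.05 and 2-fold (pseudocount 0.5). Main transcripts were tested with Fisher's exact test (50 reads in each library, 10 percentage points). edgeR 4.0.16 with a common dispersion, TMM and DESeq2 1.42.0 size factors were alternatives. scipy 1.17.1 and biopython 1.88 were used. The tests were tested on simulated data. Named genes are members with 5 reads in each library and genes of fixed lists, members below that with their reads. Members, lists and motifs were chosen with earlier results of these data known. Whether the samples are separate animals is not settled, so differences between these libraries may be technical. P-values of the binomial and Fisher tests take in counting error only and measure no spread between libraries or animals. Promoter sequences are from RefSeq, and transcripts from GENCODE M21.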

Additional observations from a re-analysis of the deposited data

How the results depend on the processing

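Cox6a2 was called higher in replicate 1 under 9 of the 10 alternatives. Those 9 all use the binomial test, which takes in counting error only, and the looser fold minimums could not remove the call. The remaining alternative, edgeR's exact test, takes in a spread between libraries and called 0 members there. In the other direction the main rule called 0 members (24 at adjusted p below 0.05 alone), no fold minimum called 24, a 1.5-fold minimum 10, TMM-scaled totals 1 (Cox16), and each other alternative 0. The median log2 ratio of members stayed between -0.48 and -0.39 under its 6 alternatives, and no scaling moved the median of all genes by over 0.1. Summed CPM of complex II was 3433 with models of the class Known only and 3771 with spliced models only, against 4182. Leaving out a replicate gave 3959 to 4405 CPM for complex II, 11653 to 15433 for complex III and 21347 to 30952 for complex IV. The Cox7a1 share was 46.0% with Known models and 45.9% with spliced models, against 49.1%, and the Cox4i2 share 0.0568% with Known models. Without a replicate the shares were 2.18 to 12.6% for Cox6a2, 47.8 to 50.5% for Cox7a1, 52.0 to 54.0% for Cox8b, 0.0607 to 0.0655% for Cox4i2 and 0.511 to 0.911% for Cox6b2. Known and incomplete matches together held 97.4% of member reads, and Known alone 91.3 to 93.3% without a replicate. Changed main transcripts numbered 0 with 20 reads in each library and 0 with spliced reads only, 6 with no minimum difference and 2 with 5 percentage points. Over all genes the main rule called 306 higher in replicate 1 and 104 in replicate 2, edgeR 94 and 38, Known models 193 and 55; higher in replicate 2 were 406 with no fold minimum, 217 at 1.5-fold and 66 with spliced models. Main transcripts called over all genes numbered 39, against 21 with 20 reads, 14 with spliced reads, 79 with no minimum and 66 with 5 points. Known-only models hold fewer reads by construction; the cause of the other changes was not tested. No paired analysis was possible because the libraries form 1 group. Cox4i2 and Cox20b, under the minimum of 10 reads, were tested with no minimum and not called.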
